A study of Aspergillus nidulans with 4 samples.

Results

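The proteasome genes of the filamentous fungus Aspergillus nidulans were compared between a strain that lacks mpkA and its parent. The members are the 44 genes, of 10930 rows in the deposited table, whose annotation text holds the word proteasome or proteasomal. One further row with these words was left out because its text also names the ribosome. From that text and from RefSeq gene symbols, 14 members were grouped as subunits of the core particle and 9 as subunits of the regulatory particle. Another 3 were grouped as assembly factors, 3 as proteins that bind or regulate the proteasome, and 15 as a process class, tied to it mainly by process terms. The groups hold only what the words caught, and whether they make up whole particles was not checked. The ATPase gene rpt4, described below, lay outside them.

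The samples were strain AN1404, whose genotype is given as -mpkA, with 2 libraries, and the parental strain AN1405 with 2 libraries. MpkA is the mitogen-activated protein kinase of the fungal cell wall integrity pathway. Both strains grew in rich medium adjusted to pH 3.3 at 28 °C, in a seed culture for 12 hours and then for about 20 hours, until late exponential growth, and no stress was applied. Other alleles of the strains and the number of independent deletion clones are not given. The submitters' question was what else the kinase does when no stress is present. Biological and technical replicates are mentioned but not assigned to libraries, so the p-values cover only library-to-library spread, which may be technical.

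The proteasome is the protease that removes proteins tagged with ubiquitin from the cytosol and nucleus. Its barrel-shaped core particle is built of rings of alpha subunits, which gate the entry, and rings of beta subunits, some of which carry the active sites inside the barrel. The regulatory particle caps the core. Its lid handles the ubiquitin chain, and the ATPases of its base unfold the substrate and thread it into the core. In yeast, dedicated chaperones help both particles to assemble. In the RNA of whole mycelium, fewer cells of a type and less RNA per cell cannot be told apart.

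Levels are reads per gene divided by a size factor for the library, here called normalised reads. The deposited tables hold their mean over the 2 libraries of a strain, and the value of each library was recovered from these means. The libraries, called a and b in each strain, held 31674270 and 31609185 reads on genes for the deletion strain and 34871842 and 33027324 for its parent. The deleted gene (AN5666) had 6 and 3 reads without mpkA, against 6993 and 6437 in the parent. Markers of conidial cells, of which 6 of 7 could be matched to a gene, summed to 652 to 677 normalised reads in the deletion libraries and 1455 to 1554 in the parental libraries. In the parental libraries abaA alone had 1153 and 1120 of these, against 127 and 125 in the deletion libraries. The spore laccase yA was higher without mpkA, with 429 and 408 against 104 and 93 in the parent. The regulators of conidiation brlA and abaA, and rodA, were lower in the deletion strain. The marker wetA was not called (q = 0.483, the authors' deposited table). Lastly, dewA was near 0, with 5.59 to 8.90 normalised reads in the deletion libraries and 4.61 to 9.58 in the parental libraries. Of the 5 markers of growing hyphae, chsB and gpdA could be matched, and they moved in opposite directions: the chitin synthase gene chsB was lower in the deletion strain (log2 change -0.80) and the glycolytic gene gpdA higher (0.31). The part of such differences in the results on the proteasome was not tested.

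Most proteasome genes were higher without mpkA, by small amounts. In the authors' deposited table, 33 of the 44 members were called higher in the deletion strain at a q-value under 0.05, 6 were called lower and 5 were not called. Of all 10505 genes tested, 72.2% were called, 36.3% higher and 35.9% lower. The median log2 change, deletion over parental, was 0.35 over the members and -0.02 over all genes tested. Of the 44 members, 9 rose at least 1.5-fold, and 18.6% of all genes did. One member fell at least 1.5-fold, against 25.4% of all genes. Both deletion libraries lay above both parental libraries for 35 members, below them for 7, and overlapped them for 2, where 43.0% of all genes lay above and 44.7% below. The members were abundant: the median member stood above 90.9% of the genes tested by its parental level, and every library held at least 102 reads of every member. The share called among other genes of like abundance was not computed.

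The direction of the smaller changes depended on how libraries were scaled. Under TMM scaling, edgeR (quasi-likelihood, Benjamini-Hochberg adjusted p under 0.05) had 35 members higher and 7 lower, where 42.5% and 44.0% of genes were higher and lower. With DESeq2 size factors in edgeR, 35 were higher and 6 lower, where 43.2% and 43.5% of genes were, and DESeq2 itself had 33 higher and 6 lower, where 37.0% and 36.1% were. Scaling by library totals shifted the median log2 change of all genes by -0.20, and each member by the same amount. Under it 23 members were higher and 10 lower, where 32.8% and 53.5% of genes were. Because the shift is shared, the members' median relative to the median of all genes could not differ between these scalings. The members' median log2 change was 0.33 against -0.02 for all genes with TMM, and 0.13 against -0.21 with library totals. With a coefficient of variation between libraries assumed at 0.2 in place of the estimated one, 5 members were higher and 0 lower, where 17.1% and 26.7% of genes were. At 0.1 there were 22 and 2, where 32.3% and 36.2% of genes were.

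Other settings of the fit moved the members' counts little. With limma, 35 were higher and 7 lower, where 42.2% and 43.7% of genes were, and edgeR with no filter had 35 and 6, where 38.3% and 39.5% were. Leaving out deletion library a or b gave 35 and 34 members higher, where 41.5% and 41.0% of genes were, and 7 and 6 lower, where 42.1% and 42.6% were. Leaving out parental library a or b gave 34 and 34 higher, where 40.2% and 40.2% of genes were, and 6 and 6 lower, where 41.4% and 41.6% were.

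**Figure D1:**
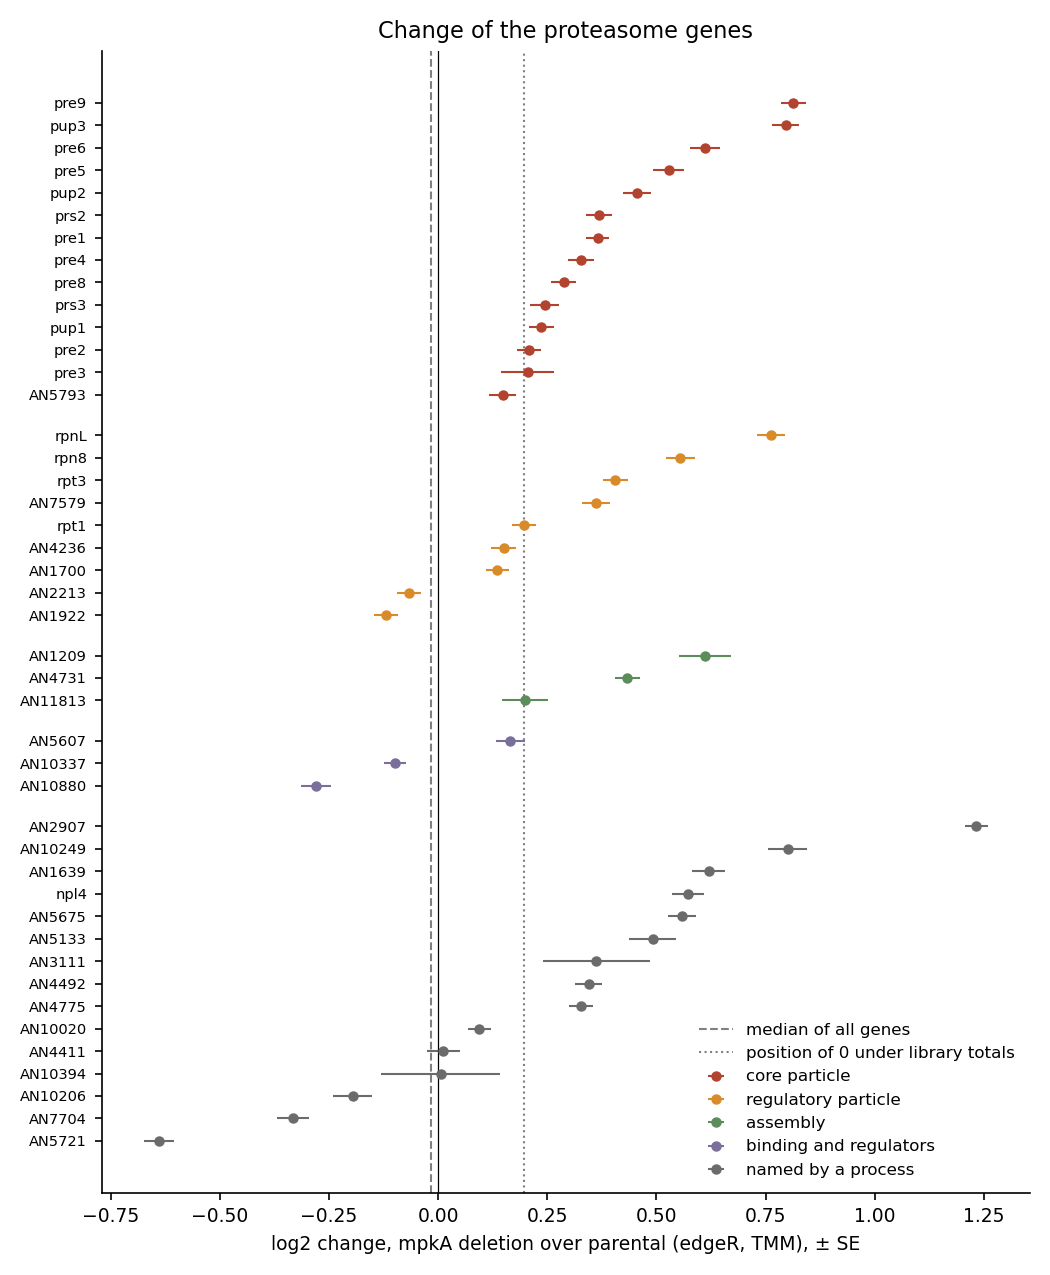
Log2 change (deletion over parental, edgeR with TMM scaling) of each of the 44 proteasome genes, in classes from top to bottom, with bars of 1 standard error. The dashed line is the median of all genes (-0.02) and the dotted line at 0.20 shows where 0 lies under library totals; all 14 core genes lie right of 0 with TMM scaling, and AN5793 lies left of the dotted line.

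Of the 14 core particle genes, 13 were called higher in the authors' deposited table, 0 lower and 1, pre3, was not called, where 36.3% of all genes were higher and 35.9% lower. They had a median log2 change of 0.36 and a range of 0.17 to 0.83. For all 14, both deletion libraries lay above both parental libraries. Under library totals edgeR called 9 higher and 0 lower, where 32.8% and 53.5% of all genes were, and the 5 that were not called were pre2, pre3, pup1, prs3 and AN5793. The core genes together took 0.378% and 0.386% of all reads on genes without mpkA, against 0.331% and 0.336% in the parent.

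The alpha subunits, as far as the text or the symbol names them, were pre9, pre6, pre5, pup2 and pre8, and all 5 were called higher with both scalings. Of all genes, 36.3% were higher in the authors' deposited table and 32.8% by edgeR under library totals. The gene pre9 (AN1757, positions 1807570 to 1808967 on the minus strand; the deposited tables give no chromosome) encodes the subunit that the annotation numbers alpha 3. It had 11734 and 11991 normalised reads without mpkA, against 6595 and 6737 in the parent. This was the largest rise of the core, 1.78-fold (q = 1.60e-107, the authors' deposited table), and edgeR gave a log2 change of 0.81 (SE 0.03). Among all genes tested, 85.3% had a smaller log2 change than pre9.

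The subunit numbered alpha 4 in the annotation is encoded by pre6 (AN8054). It had 11306 and 10733 normalised reads without mpkA, against 6887 and 7360 in the parent, and rose 1.55-fold (q = 1.58e-25, the authors' deposited table). Both deletion libraries were above both parental libraries. The alpha subunit gene pre5 (AN6547) had 10919 and 11766 normalised reads without mpkA, against 7603 and 7940 in the parent. It rose 1.46-fold and pup2 (AN5872), another alpha subunit gene, 1.39-fold in the authors' deposited table. For pup2 the deletion libraries had 8689 and 8415 and the parental libraries 5998 and 6328 normalised reads. The smallest rise among the alpha genes was that of pre8 (AN6726), 1.24-fold (q = 8.37e-16, the authors' deposited table), with 10075 and 10156 normalised reads without mpkA and 8047 and 8327 in the parent. The gene prs2 (AN4869), annotated as a component of the core with no ring named, rose 1.31-fold (q = 7.17e-23, the authors' deposited table).

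Of the 8 genes grouped as beta subunits, 7 were called higher and 0 lower in the authors' deposited table, where 36.3% and 35.9% of all genes were. AN5793 was among the 8 by its text alone, and its place in the beta ring was not checked. The median log2 change of the 8 was 0.26 against 0.55 for the 5 alpha genes, a difference that was not tested. In yeast, 3 beta subunits carry the active sites, those encoded by pre3, pup1 and pre2, which cut after acidic, basic and hydrophobic residues. These 3 genes had log2 changes of 0.22 to 0.25. The gene pup1 (AN2085) had 8028 and 7958 normalised reads without mpkA, against 6637 and 6763 in the parent, and was 1.19-fold higher (q = 1.54e-10, the authors' deposited table). For pre2 (AN3932) these were 9180 and 9402 without mpkA and 7941 and 7950 in the parent, a 1.17-fold rise (q = 5.30e-09, the authors' deposited table). Under library totals edgeR called 0 of the 3 catalytic genes higher and 0 lower, where 32.8% and 53.5% of all genes were.

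The catalytic subunit gene pre3 (AN3756) was the core gene that was not called. It had 6758 and 8091 normalised reads without mpkA, against 6679 and 6041 in the parent, 1.17-fold higher (q = 0.199, the authors' deposited table). The distance between its deletion libraries, 0.26 on the log2 scale, was the largest of the 44 members and exceeded the change between strains. The median member had a distance of 0.04 between deletion libraries and 0.03 between parental libraries. By edgeR, pre3 had a log2 change of 0.21 (SE 0.06) and passed the threshold (adjusted p = 0.0049). The call was lost without deletion library b, where the log2 change was 0.07, and without parental library b, where it was 0.14. It was 0.34 without deletion library a and 0.28 without parental library a, and both passed.

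Among the other 5 beta genes, which are not catalytic in yeast or have no such statement, pup3 stood apart from the rest. The gene pup3 (AN4449, positions 2018424 to 2019332 on the plus strand) had 7247 and 7424 normalised reads without mpkA, against 4117 and 4232 in the parent. It rose 1.76-fold (q = 1.64e-84, the authors' deposited table), with a log2 change of 0.80 (SE 0.03) from edgeR. The remaining 4 rose less. For pre1 (AN4457) the rise was 1.30-fold and for pre4 (AN10708) 1.27-fold in the authors' deposited table. The genes prs3 (AN5784), annotated to the complex of beta subunits, and AN5793, annotated as a beta-type subunit, rose 1.20-fold and 1.12-fold in the authors' deposited table, and AN5793 turned to a log2 change of -0.05 under library totals.

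The value of AN5793 carries a limit, since 433 of its 1665 bp overlap AN10718 on the opposite strand in the files' coordinates. The library kit does not mark the strand, so reads in that stretch cannot be told apart. AN10718 had 2927 normalised reads in the deletion strain and 2880 in the parental strain, 1.02-fold (q = 0.808, the authors' deposited table). In all, 10 members overlapped a neighbouring gene, and the overlaps other than that of AN5793 were 16 to 124 bp long.

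**Figure D2:**
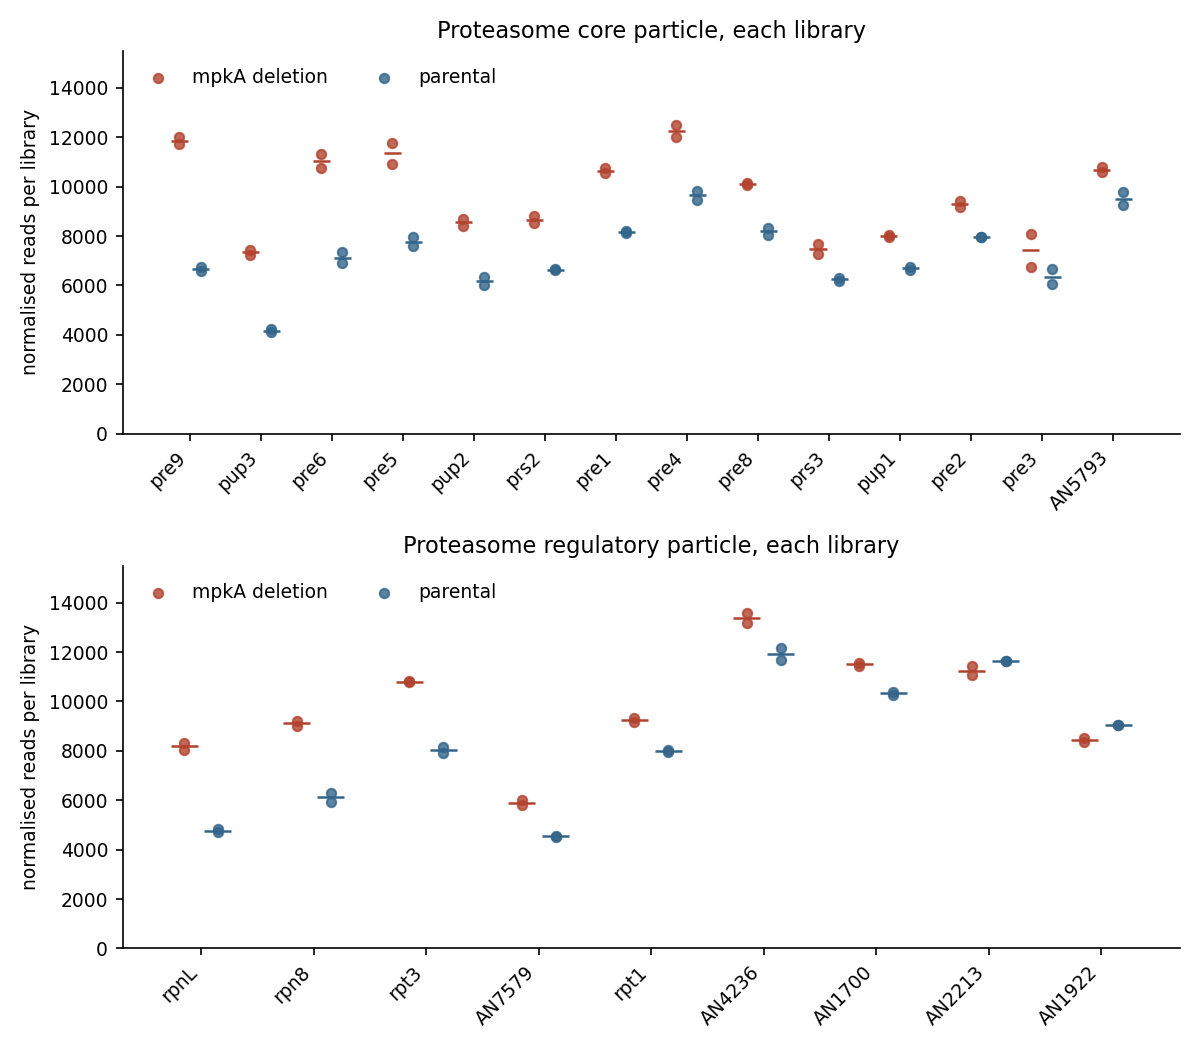
Normalised reads (linear axis from 0) of the 14 core genes (top) and the 9 regulatory particle genes (bottom), with the deletion strain left of the parental strain for each gene. Points are the 2 libraries of a strain and short lines their mean; the deletion libraries of pre3 lie at 6758 and 8091, the widest pair of the core, and the genes at the right end of the lower panel, AN2213 and AN1922, have their deletion libraries below the parental ones.

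Per length, the core genes were abundant in both strains. Normalised reads per kb of gene span, introns included, ran from 5792 for pre2 to 11368 for pre4 in the deletion strain and from 4552 for pup2 to 8946 for pre4 in the parental strain. The highest level was 1.96 times the lowest in the deletion strain and 1.97 times in the parental strain. The coefficient of variation of the level over the 14 genes was 22.0% in the deletion strain and 21.0% in the parental strain. The core median was 7338 per kb in the deletion strain, above 95.7% of all genes tested, and 5581 per kb in the parental strain, above 94.7%. The order of the genes changed, and pre9 had 8485 per kb in the deletion strain against 4768 in the parental strain while AN5793 had 6412 in the deletion strain against 5715 in the parental strain.

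**Figure D3:**
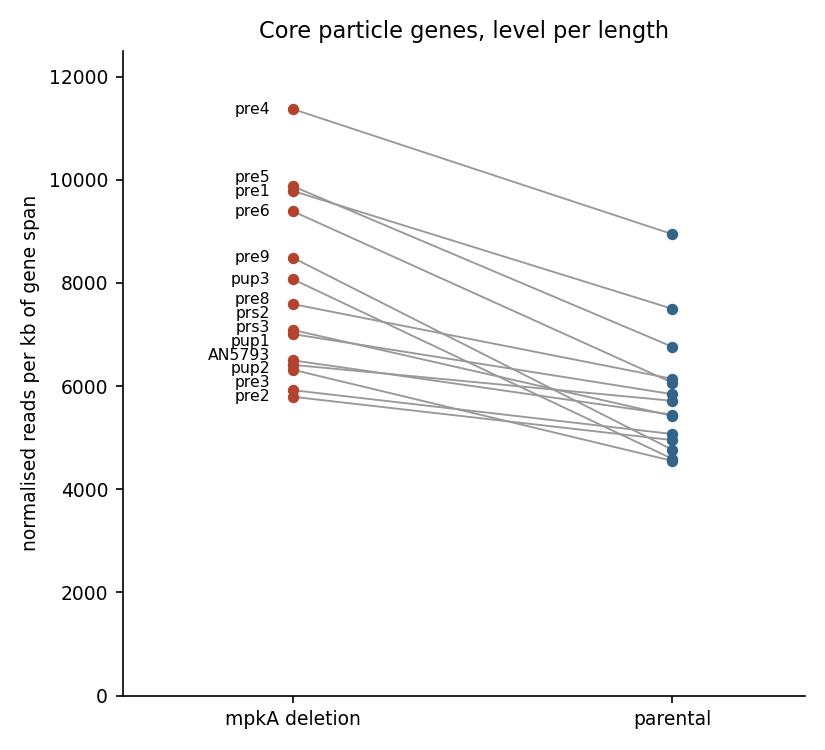
Level of the 14 core genes in normalised reads per kb of gene span (linear axis from 0), deletion strain at the left and parental strain at the right, each gene joined by a line. Points are means of 2 libraries; every line falls from left to right, and the steepest are those of pre9 (8485 and 4768 per kb), pup3 (8070 and 4592) and pre6 (9386 and 6068).

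Genes of the regulatory particle differed in direction. Of 9 members, 7 were called higher, 1 lower and 1 was not called in the authors' deposited table. Over all genes, 36.3% were higher and 35.9% lower there. The 9 members had a median log2 change of 0.21 and a range of -0.10 to 0.78. Under library totals edgeR called 4 higher and 3 lower (AN2213, AN1922 and AN1700), where 32.8% and 53.5% of all genes were. Together the 9 genes took 0.248% and 0.250% of reads without mpkA, against 0.244% and 0.245% in the parent. Their levels per kb spanned 2.62 times from lowest to highest in the deletion strain and 2.59 times in the parental strain.

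Among the 9 members of the regulatory particle, the 3 grouped with the lid held the extremes in both directions. The lid subunit gene rpnL (AN3019, positions 2089697 to 2090821 on the plus strand) had 8043 and 8334 normalised reads without mpkA, against 4711 and 4825 in the parent. It rose 1.72-fold (q = 2.65e-82, the authors' deposited table), with a log2 change of 0.76 (SE 0.03) from edgeR, close to the largest rises of the core. The gene rpn8 (AN5121), in yeast the lid partner of the subunit that removes ubiquitin chains, had 8995 and 9228 normalised reads without mpkA and 6304 and 5943 in the parent, a 1.49-fold rise (q = 1.97e-43, the authors' deposited table). AN1922, annotated to the lid and to the onset of anaphase, went the other way. It had 8358 and 8512 normalised reads without mpkA, against 9056 and 9033 in the parent, 0.933 times the parental level (q = 0.0112, the authors' deposited table). Among the 23 genes grouped as subunits, AN1922 was the only one called lower there. AN10337, annotated as an enzyme regulator in the proteasome complex and grouped apart, was also called lower (q = 0.0295, the authors' deposited table). Under library totals edgeR gave AN1922 a log2 change of -0.32 (adjusted p = 2.8e-09).

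Of the 4 base ATPase genes, 3 were called higher and 0 lower in the authors' deposited table, where 36.3% and 35.9% of all genes were. Their median log2 change was 0.19. The gene rpt3 (AN2904) had 10773 and 10828 normalised reads without mpkA, against 7924 and 8177 in the parent, and rose 1.34-fold (q = 1.69e-29, the authors' deposited table). The gene rpt1 (AN2917) was 1.16-fold and AN4236, annotated as a subunit of an ATPase family, 1.12-fold higher in the authors' deposited table, while under library totals their log2 changes were -0.00085 and -0.05. AN2213, annotated with the activity of the proteasome-activating ATPase, had 11432 and 11053 normalised reads without mpkA, against 11628 and 11629 in the parent, 0.967 times the parental level (q = 0.224, the authors' deposited table). With edgeR its log2 change was -0.07 (SE 0.03), which passed the threshold (adjusted p = 0.0307). That call was lost in edgeR with DESeq2 size factors (adjusted p = 0.0776), in edgeR with no filter (0.0683) and in DESeq2 (0.219). With a library left out, the log2 change of AN2213 was -0.08 to -0.04. Under library totals edgeR called AN2213 lower, with a log2 change of -0.26 (adjusted p = 4.5e-08). A further ATPase gene, rpt4 (AN5747), lies outside the word rule and was looked up after the values were seen. It had 11407 normalised reads in the deletion strain and 8515 in the parental strain, 1.34-fold higher (q = 1.15e-29, the authors' deposited table).

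Elsewhere in the regulatory particle, AN7579, annotated to the base and to the binding of ubiquitin chains, rose 1.30-fold (q = 9.39e-19, the authors' deposited table). AN1700, named only as a regulatory subunit, was 1.11-fold higher (q = 3.87e-05, the authors' deposited table). Under library totals edgeR called it lower, with a log2 change of -0.06 (adjusted p = 0.0448).

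The 3 genes classed as assembly factors were called higher in the authors' deposited table, where 36.3% of all genes were higher and 35.9% lower. The genes pre4 and rpt1 also carry an assembly term but were placed with the subunits by symbol. AN1209, for assembly of the regulatory particle, had 1062 and 1119 normalised reads without mpkA, against 741 and 668 in the parent, a 1.55-fold rise (q = 3.26e-15, the authors' deposited table). AN4731, for proteasome assembly and the response to DNA damage, had 7753 and 7657 normalised reads without mpkA and 5679 and 5593 in the parent and rose 1.37-fold (q = 5.67e-29, the authors' deposited table). AN11813, also annotated for assembly of the regulatory particle, was 1.16-fold higher (q = 0.0042, the authors' deposited table). Under library totals it had a log2 change of 0.0024 and was not called, while AN1209 and AN4731 were. Per kb these genes differed widely in level, with 1079 for AN1209, 1304 for AN11813 and 7473 for AN4731 in the deletion strain.

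The 3 genes whose products bind or regulate the proteasome were split. AN5607, annotated as a peptidase activator that binds the proteasome, was 1.14-fold higher (q = 0.0008, the authors' deposited table), with a log2 change of -0.03 under library totals. AN10337, annotated as an enzyme regulator in the proteasome complex, was 0.945 times the parental level (q = 0.0295, the authors' deposited table). AN10880, annotated for proteasome binding and the response to arsenic, had 3694 and 3866 normalised reads without mpkA, against 4567 and 4497 in the parent. It fell to 0.834 times the parental level (q = 1.19e-08, the authors' deposited table).

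The 15 members of the process class spread furthest. Of these, 9 were called higher, 3 lower and 3 were not called in the authors' deposited table. Over all genes, 36.3% were higher and 35.9% lower there. The log2 changes of the 15 ran from -0.62 to 1.25. Under library totals edgeR had 8 higher and 5 lower, where 32.8% and 53.5% of all genes were. The largest rise of all members was that of AN2907 (positions 2434769 to 2436605 on the minus strand), whose text names assembly of translation initiation factor 3 and positive regulation of proteasomal degradation. It had 19670 and 19595 normalised reads without mpkA, against 8297 and 8206 in the parent, 2.38-fold higher (q = 3.42e-269, the authors' deposited table). AN10249, annotated as an aminoacyl-tRNA hydrolase that limits proteasomal degradation, had 3190 and 3561 normalised reads without mpkA and 1917 and 1912 in the parent, a 1.76-fold rise (q = 3.90e-15, the authors' deposited table).

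Other members of this class that were called higher follow. The gene npl4 (AN0295), in yeast a partner of the Cdc48 ATPase that extracts ubiquitinated proteins from membranes and complexes, had 4278 and 4224 normalised reads without mpkA, against 2921 and 2726 in the parent. It rose 1.51-fold (q = 4.28e-35, the authors' deposited table). The Cdc48 gene itself (AN7254, outside the word rule and looked up after the values were seen) was 1.11-fold higher (q = 0.0004, the authors' deposited table), a log2 change of 0.14, which is less than the shift of 0.20 under library totals. AN5675, annotated for ubiquitin binding, rose 1.49-fold, and AN1639, annotated for protein denaturation in proteasomal degradation, 1.56-fold in the authors' deposited table. AN4492, a ubiquitin-specific protease linked to proteasome storage granules, and AN4775, linked to the removal of Nedd8 from cullins, rose 1.29-fold and 1.27-fold in the authors' deposited table. AN10020, annotated to the nuclear periphery, was 1.08-fold higher (q = 0.0027, the authors' deposited table) but was called lower by edgeR under library totals, with a log2 change of -0.10 (adjusted p = 0.0021).

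Of the 3 falls in this class, 2 were of genes with little further annotation. AN5721 (positions 1892014 to 1894519 on the plus strand), annotated only for ubiquitin-dependent degradation in the cytosol, had 2202 and 2240 normalised reads without mpkA, against 3392 and 3442 in the parent. It fell to 0.65 times the parental level (q = 1.49e-33, the authors' deposited table), the largest fall of the 44 members, with a log2 change of -0.64 (SE 0.03) from edgeR. AN7704, annotated alike in the cytoplasm and nucleus, fell to 0.804 times the parental level (q = 2.84e-09, the authors' deposited table).

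Genes whose text names the anaphase-promoting complex, the ubiquitin ligase that starts chromosome separation, were mostly not called. Of these 5 genes, 1 was called higher, 1 lower and 3 were not called in the authors' deposited table. Among all genes there, 36.3% were higher and 35.9% lower. Under library totals edgeR had 1 higher and 2 lower, where 32.8% and 53.5% of all genes were. AN5133 had 1144 and 1133 normalised reads without mpkA, against 831 and 767 in the parent, a 1.43-fold rise (q = 4.55e-11), and AN10206 was at 0.884 times the parental level (q = 0.0101, the authors' deposited table). AN3111 had 151 and 154 normalised reads without mpkA and 116 and 119 in the parent (q = 0.0637 in the authors' deposited table), and edgeR called it with a log2 change of 0.36 (SE 0.12, adjusted p = 0.0119). AN10394 had 115 and 114 normalised reads without mpkA, against 118 and 106 in the parent, so the strains overlapped; edgeR gave a log2 change of 0.01 (SE 0.14) with TMM and -0.19 under library totals. AN4411, which also names proteasome localisation, had 5289 and 5112 normalised reads without mpkA and 5317 and 4867 in the parent, so the strains overlapped, and its log2 change of 0.03 turned to -0.18 under library totals.

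Related lists were formed from words in the annotation, without the 44 members. A gene can stand in more than 1 list, as AN2129, AN2240, AN3003, AN6170, AN10433 and AN10874 do. Their counts stand beside 36.3% higher and 35.9% lower over all genes in the authors' deposited table, and 32.8% and 53.5% under library totals in edgeR. The COP9 signalosome, which removes Nedd8 from ubiquitin ligases and is built like the lid, had 5 of 8 genes called higher, 0 lower and 3 not called in the authors' deposited table, with a median log2 change of 0.24. Under library totals edgeR had 2 higher and 3 lower. Its subunit 1 gene AN1491 rose 1.59-fold (q = 1.56e-38) and its subunit 3 gene AN5798 1.33-fold in the authors' deposited table, while that of subunit 5, the catalytic one (AN2129), had 1029 normalised reads without mpkA and 1025 in the parent (q = 0.992). Translation initiation factor 3, which shares protein domains with the lid and the signalosome, had 9 of 9 genes called higher, 9 also under library totals, with a median log2 change of 0.98 and a range of 0.61 to 1.60. AN7105, its subunit c, rose 3.03-fold and AN10182, its subunit f, 2.81-fold in the authors' deposited table. The log2 change of AN2907, 1.25, lay within this range and above the 0.83 of pre9.

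The ubiquitin system, of 102 genes, was called higher for 47, lower for 28 and not called for 27 in the authors' deposited table. Over all genes, 36.3% were higher and 35.9% lower there. The median log2 change of the 102 genes was 0.11. Under library totals the split in edgeR was 34 higher and 49 lower, near the shares of 32.8% and 53.5% over all genes. AN4872, which encodes ubiquitin fused to a protein of the small ribosomal subunit, rose 4.0-fold (q = 1.12e-25, the authors' deposited table), and AN2240, a mannosyltransferase gene of membrane anchor synthesis that carries the term for degradation from the endoplasmic reticulum, 2.51-fold (q = 1.25e-80). AN8074, a predicted deubiquitinating enzyme, fell to 0.358 times and AN0482, a putative ubiquitin-conjugating enzyme, to 0.386 times the parental level in the authors' deposited table.

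Degradation from the endoplasmic reticulum had 4 of 6 genes called higher and 1 lower in the authors' deposited table. AN2240, also in the ubiquitin system list, was 2.51-fold and AN10433 1.74-fold higher, and AN6170 was at 0.89 times the parental level. Under library totals edgeR had 2 higher and 2 lower. Autophagy, which delivers cytoplasm to the vacuole, had 8 of 23 genes called higher, 9 lower and 6 not called, near the shares of 36.3% and 35.9% over all genes, with a median log2 change of -0.02. The list's words also caught AN10193 and AN1973, whose texts name non-autophagic vacuole fusion, and the counts and median include them. These were the list's largest rises, 1.74-fold and 1.49-fold in the authors' deposited table. AN2280 fell to 0.512 times and AN5107 to 0.637 times the parental level there. Under library totals edgeR had 5 genes of the autophagy list higher and 15 lower, where 32.8% and 53.5% of all genes were. Vacuolar proteolysis had 3 of 6 genes called higher and 1 lower in the authors' deposited table. AN3003, annotated as a ubiquitin-specific protease, was 1.49-fold and AN11070 1.13-fold higher, and AN3918 was at 0.837 times the parental level. The rise of AN11070 is smaller than the shift under library totals, where edgeR had 1 higher and 1 lower. The list's words also caught AN8404, annotated for peptidase inhibitor activity. It was near 0, with means of 1.67 normalised reads without mpkA and 0.46 in the parent (q = 0.72, the authors' deposited table). Its log2 change of 1.86 is the largest of the list.

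**Figure D4:**
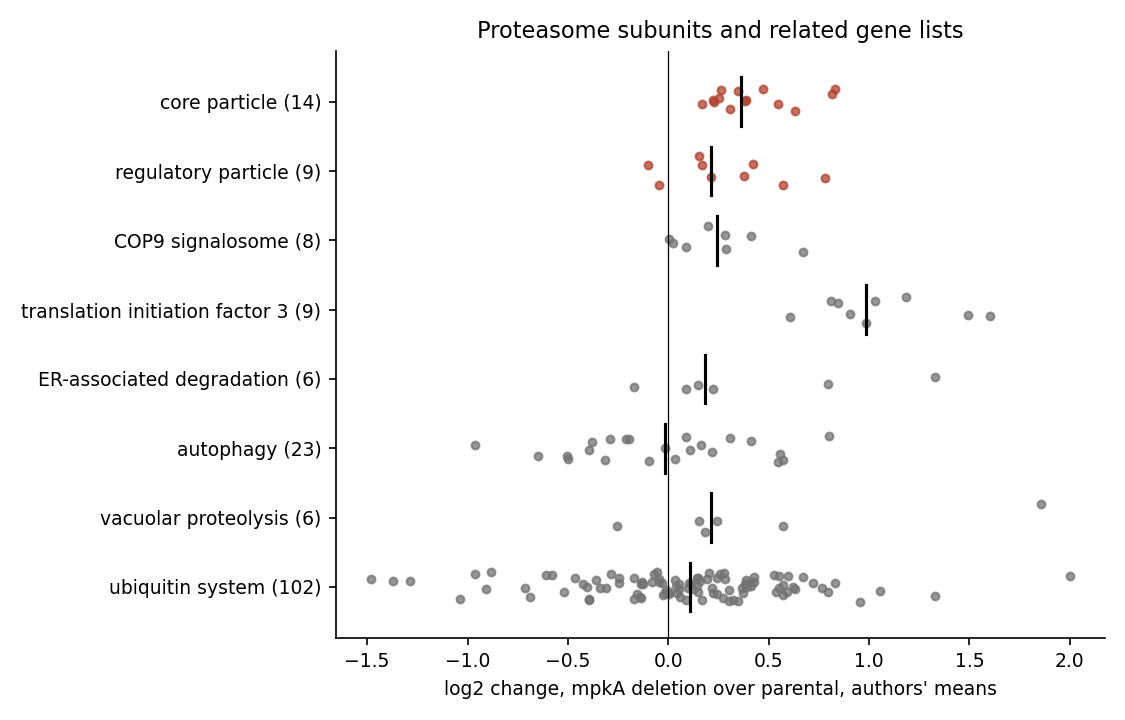
Log2 change (deletion over parental, from the authors' means) of the core and regulatory particle genes and of 6 related lists, 1 point per gene, with the number of genes plotted in brackets and a black line at each median. The core genes lie between 0.17 and 0.83 and the translation initiation factor 3 genes between 0.61 and 1.60. Genes of the autophagy list, some of them annotated as non-autophagic, lie on both sides of 0 around a median of -0.02. The vacuolar proteolysis point at 1.86 is AN8404, a gene with reads near 0 in both strains.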

How the data were processed

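Per the labels' protocols, RNA was taken with Trizol, and the TruSeq v2 kit used for the libraries keeps no strand information. Bowtie2, HTSeq and DESeq appear in the submitters' processing notes. Not given in the sources used here are tool versions, build and read-counting settings. The signal values deposited by the authors were made by dividing the reads of each gene by a size factor and averaging over the 2 libraries of a strain. The ratio in the authors' deposited table runs parental over deletion and was inverted here. Its p-values and q-values come from the authors' DESeq run, and a q-value under 0.05 is the call. Other columns of per-sample values that belong to no sample of the series numbered 2 and were left out.

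The mean of a strain occurs in more than one table, under different size factors. Whole reads of both libraries were solved from these means, for 100% of rows in each strain within 0.00015 normalised reads. Library letters carry no replicate number. The reads entered edgeR 4.0.16 (R 4.3.3) with filterByExpr, TMM and Benjamini-Hochberg adjustment. Standard errors are the absolute log2 change over the root of the F statistic. Alternatives were DESeq2 1.42.0, limma 3.58.1 (prior count 2), DESeq2 size factors, library totals, no filter, assumed coefficients of variation of 0.1 and 0.2, and each library left out. The recovery and the fits were tested on simulated data. With 2 libraries against 2, a permutation test cannot go below p = 0.333.

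Of the members, 43 matched a RefSeq locus (assembly ASM1142v1, used for names and neighbouring genes only) and 18 had a symbol. Words alone would class 7 members otherwise, among them pre4, rpt1, pup2, pre5 and pre8, which were placed by symbol. The 3 genes that bind or regulate the proteasome were split off from the process class. The genes named in each class were the 3 largest rises and falls among those called, the 2 most abundant, and those against the main direction. Core and regulatory subunits, and further members outside this rule, are described by their values. Members and lists were chosen with earlier results of these data known.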

Additional observations from a re-analysis of the deposited data

How the results depend on the processing

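DESeq2 left the direction and call of all 44 members as in the authors' table. With 2 libraries per strain, the spread assumed between cultures limits every count. Higher and lower members numbered 22 and 2 at an assumed coefficient of variation of 0.1, and 5 and 0 at 0.2. Of all genes, 32.3% were higher and 36.2% lower at 0.1. At 0.2, 1601 genes in all were higher (17.1%) and 2494 lower (26.7%). Of the 23 core and regulatory subunits, 12 were higher and 0 lower at 0.1, and 3 and 0 at 0.2. Among the 148 genes of the related lists these were 46 and 25 at 0.1, and 17 and 9 at 0.2. Asking for at least 1.5-fold left 1958 genes higher (18.6%) and 2665 lower (25.4%) in all. It left 9 of 44 members higher and 1 lower, and 4 of 23 subunits higher and 0 lower. Of the 148 related genes, 24 were higher and 10 lower. Restricting members to the 16 whose words name a subunit left 15 higher and 1 lower, where 36.3% and 35.9% of all genes were.

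Library totals gave 10 members lower, 13 subunits higher and 3 lower, 50 related genes higher and 68 lower, where 32.8% and 53.5% of all genes were, and a members' median log2 change of 0.13. They reversed 8 members, to log2 changes of -0.048 for AN5793, -0.00085 for rpt1 (AN2917), -0.046 for AN4236, -0.061 for AN1700, -0.031 for AN5607, -0.10 for AN10020, -0.18 for AN4411 and -0.19 for AN10394. TMM and limma each had 2 subunits lower. Leaving out each library gave 1 to 2 subunits lower, and log2 changes of -0.048 to 0.077 for AN4411 and -0.067 to 0.089 for AN10394. Where a strain kept 1 library, it was assumed to vary like the other strain. The causes were not tested. No paired analysis was possible because the recovered libraries carry no replicate number.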
